A study of Rattus norvegicus with 4 samples.

Results

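Heat shock proteins and their partner chaperones were represented by 94 genes of the 13984 rows with a gene ID in the neonatal rat hippocampus. They were chosen by symbol: the HSP70, HSP110, HSP90, HSP40 (Dnaja, Dnajb and Dnajc) and small heat shock protein families, the mitochondrial HSP60 and HSP10 pair, the cytosolic CCT ring, the Bag genes, a set of endoplasmic reticulum (ER) folding proteins, and the transcription factors Hsf1, Hsf2, Xbp1, Atf4 and Ddit3. The symbol rule also took in Hspbp1 and Hspbap1, which are partners of heat shock proteins. Of the 94 genes, 90 were listed in all 4 libraries, and 83 of these reached a mean of 1 FPKM (fragments per kilobase of transcript, scaled to the depth of the library), as did 10857 rows with a gene ID in all.

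RNA-seq was performed on the hippocampus of newborn Wistar pups at postnatal day 1. Their mothers, 10 weeks old by the study's record, received bisphenol A (BPA) at 5000 µg/kg body weight or the vehicle every day between gestational day 1 and birth. BPA is a plastics monomer with weak estrogen-like activity. By the methods it was given into the stomach, in ethanol diluted with corn oil. The 4 groups were males and females of vehicle-treated (control) and of BPA-treated mothers, each held 1 library, and each library was a pool of 3 hippocampi, so no spread between litters could be measured within a group. With 2 BPA and 2 control libraries in all, the smallest p a two-sided exact permutation test can give is 0.333, and no such test can pass a threshold of 0.05.

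Chaperones bind unfolded proteins and help them fold, keep them soluble or pass them on for degradation. In the cytosol, HSP70 works in cycles set by an HSP40 partner and by exchange factors of the Bag and HSP110 type, HSP90 matures kinases and steroid receptors, and the CCT ring folds actin and tubulin. Heat or misfolding in the cytosol activates the factor HSF1, whereas unfolded protein in the ER activates the factors XBP1, ATF4 and CHOP (the product of Ddit3).

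The steps of the low FPKM values gave depths of 8660000 to 8920000 fragments per library, so depth was close to equal. Of these values, 96.1% to 98.2% came out at most 0.15 from an integer number of fragments, where 30% would if they were spread evenly. Markers of the labelled tissue were present, with Neurod6, a factor of hippocampal pyramidal neurons, between 135 and 161.3 FPKM. Tissue outside the hippocampus differed between libraries. The summed choroid plexus markers stood at 265 FPKM in control males, 704.6 in BPA males, 7.7 in control females and 45.5 in BPA females, and Ttr made up most of each sum. The summed markers of meninges and vessel wall stood at 77.4, 54, 156.7 and 67.8 FPKM in the same order.

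The promoters of the ER members that are described next are shown because 6 members hold the ER stress element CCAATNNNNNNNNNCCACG. The sequences are from RefSeq on build GRCr8, whereas the files used build rn6, and they run 5′ to 3′ on the strand of the gene, with the element in capitals. Where the capitals open with CGTGG, the element lies on the opposite strand. In Hspa5 (chr3:38452953-38453011, plus strand) the element ends 24 bases before the start of the gene, in Xbp1 (chr14:84604538-84604596, plus strand) 46 bases before it, and in Dnajc3 (chr15:102432514-102432572, plus strand) 114 bases before it. In Calr (chr19:40213117-40213173, plus strand) it ends 213 bases and in Canx (chr10:35158049-35158107, minus strand) 211 bases before the start. Hsp90b1 (chr7:23012327-23012489, minus strand) holds 2 elements, one on each strand, and the nearer of them ends 53 bases before the start.
Hspa5: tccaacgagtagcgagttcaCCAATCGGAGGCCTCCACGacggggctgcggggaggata
Hsp90b1: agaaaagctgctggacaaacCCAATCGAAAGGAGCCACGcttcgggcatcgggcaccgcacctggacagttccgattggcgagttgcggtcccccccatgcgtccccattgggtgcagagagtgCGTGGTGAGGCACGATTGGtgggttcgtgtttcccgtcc
Calr: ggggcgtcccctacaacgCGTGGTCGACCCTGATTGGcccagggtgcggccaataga
Canx: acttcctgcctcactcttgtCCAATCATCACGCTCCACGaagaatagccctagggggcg
Xbp1: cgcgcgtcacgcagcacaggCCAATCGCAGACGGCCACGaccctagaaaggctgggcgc
Dnajc3: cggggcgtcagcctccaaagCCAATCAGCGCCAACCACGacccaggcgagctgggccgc

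Across both strands of all promoter windows, from 250 bases before the start to 50 after it, the element was held by 21 of 27457 genes (0.0765%) and by 6 of the 76 members with a promoter in the table. Among the 8884 tested genes with a promoter it was held by 16 (0.18%). The heat shock element, written as GAANNTTCNNGAA or TTCNNGAANNTTC and bound by HSF1 and HSF2, was held by 218 genes (0.794%) and by 6 members, namely Cct4, Dnaja1, Hspa8, Hspd1, Hspe1 and Hsph1. Among the 8884 tested genes the heat shock element was held by 40 (0.45%). No member held both elements in this window. In Cct4 and Dnaja1 the match lay after the start and is not printed. Hspd1 and Hspe1 stand head to head and share 1 stretch of promoter, shown on the strand of Hspe1 (chr9:64084242-64084299, plus strand), in which 2 overlapping matches form the capitals. Hspa8 (chr8:50080281-50080491, plus strand) holds 2 matches and Hsph1 (chr12:10427312-10427364, plus strand) holds 1, which ends 23 bases before the start. A match describes the letters of the window and was not a measurement of binding.
Hspe1 and Hspd1: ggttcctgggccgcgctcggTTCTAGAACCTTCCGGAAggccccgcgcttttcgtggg
Hsph1: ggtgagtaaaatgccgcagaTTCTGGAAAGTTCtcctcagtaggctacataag
Hspa8: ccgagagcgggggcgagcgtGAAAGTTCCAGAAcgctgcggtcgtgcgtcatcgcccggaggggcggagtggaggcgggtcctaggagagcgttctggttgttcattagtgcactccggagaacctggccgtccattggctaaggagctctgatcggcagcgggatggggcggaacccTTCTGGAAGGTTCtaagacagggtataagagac

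The cytosolic chaperones were among the most abundant RNAs of the set. Hspa8, the HSP70 that is made in every cell without stress, led all members with 1040 FPKM in control males, 990 in BPA males, 1092 in control females and 977 in BPA females. Both BPA libraries lay below both control libraries, as they did in 20.2% of all tested rows with a gene ID, and the log2 differences were -0.07 in males and -0.16 in females. Quantile normalization, which gives all libraries the same distribution of values, made them -0.04 and -0.29. A new gene model of the authors that matches part of the Hspa8 protein carried as much signal again, with 1085, 1019, 1144 and 1024 FPKM in the same order. The level of the gene is therefore uncertain, while its differences within a sex were alike in both rows.

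Hsp90ab1, the HSP90 made without stress, followed with 794, 767, 795 and 827 FPKM in control and BPA males and control and BPA females. Hsp90aa1, the form that heat induces in many cells, had 425, 416, 479 and 501 FPKM. In both genes the BPA library was lower than its control in males and higher in females, by at most 0.06 on the log2 scale. The female direction depended on the scaling, since quantile normalization turned it to -0.11 in Hsp90aa1 and -0.05 in Hsp90ab1. In all, 21 of the 94 members had a mean above 100 FPKM, and the members together made up between 1.41% and 1.55% of the fragments of a library.

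**Figure D1:**
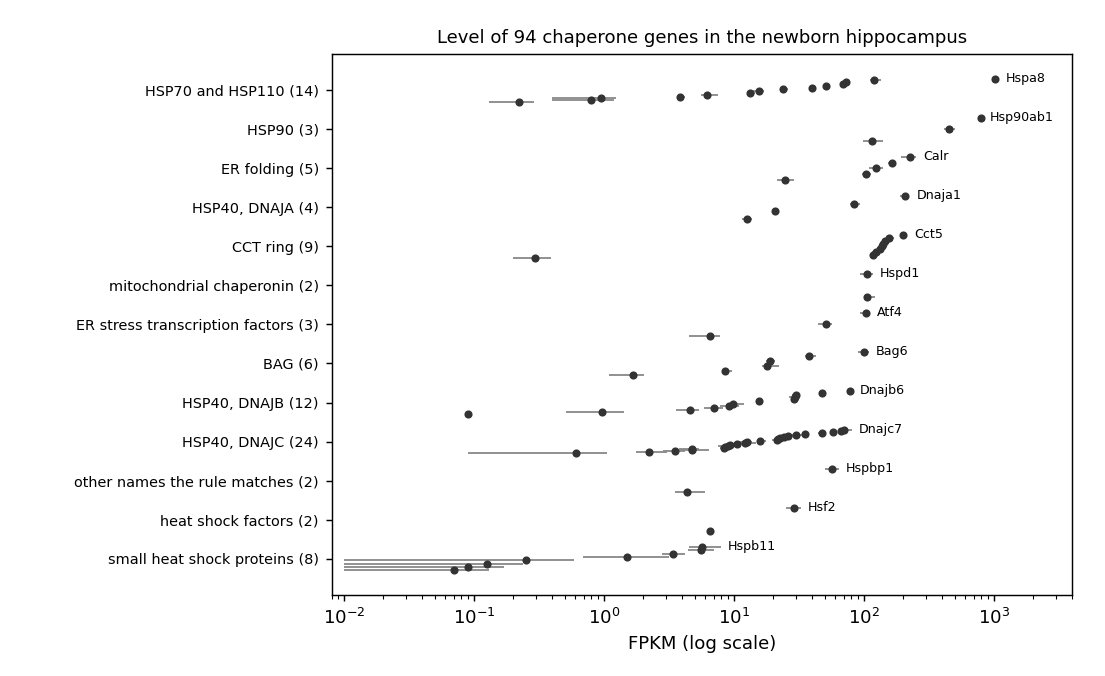
Levels of the 94 members by family, in FPKM on a log scale, with the number of members beside each family name. Points are means over the libraries that list the gene, lines run from the lowest to the highest library, and the member with the highest mean is named. Hspa8 and Hsp90ab1 stand highest, while the small heat shock proteins lie below 8 FPKM in every library.

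The stress-inducible HSP70 genes were nearly silent. Hspa1a was listed at 1.02 FPKM in control males, 1.20 in BPA males, 0.40 in control females and 0.58 in BPA females, and Hspa1b at 0.19, 0.28, 0.29 and 0.13. These correspond to 7 to 42 fragments, and because the genes are near-identical copies the split of fragments between them is uncertain. Hspa1l, a further HSP70 gene known from testis, was also under a mean of 1 FPKM. In every library these genes lay far below Hspa8.

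The other HSP70 and HSP110 genes covered a range of compartments. Hspa4, an HSP110-type exchange factor, had 72.7, 68.1, 76.8 and 76.0 FPKM in control and BPA males and control and BPA females. Hspa9, the HSP70 of the mitochondrial matrix, had 68.6, 67.3, 67.3 and 73.2 FPKM. Hsph1, an HSP110 that is induced by heat, had 51.1, 49.3, 55.0 and 49.0 FPKM. Of the 11 members of this family that were tested, 6 were lower in BPA in each sex, where 32.6% of all tested rows with a gene ID were, and 1, Hspa13, was higher in each, where 24.2% were.

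The subunits of the CCT ring, which stand in equal number in the assembled complex, stayed close to each other. Their means ran from 119 FPKM for Tcp1 to 199 FPKM for Cct5 over the 8 subunits tested. Cct5 had 194, 194, 193 and 216 FPKM in control and BPA males and control and BPA females. Cct6a had 152, 150, 154.6 and 170 FPKM, and Cct2 had 143, 138, 151 and 156 FPKM. In males the differences of the 8 subunits lay between -0.05 and 0.00 on the log2 scale, with 7 lower and 1 higher. In females all 8 were higher in BPA, by 0.04 to 0.15. After quantile normalization 4 of the 8 were lower and 4 higher in males, and in females the 8 were higher by 0.001 to 0.11, so the counts by direction depended on the scaling. Cct6b, a subunit known from testis, stayed between 0.20 and 0.39 FPKM. Of the mitochondrial chaperonin genes, one was lower and the other higher in BPA in each sex. Hspd1, the HSP60 chamber, had 104, 92.8, 117 and 113 FPKM in that order, and Hspe1, its HSP10 lid, had 99.7, 101, 103 and 121.

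The HSP40 genes, which hand clients to HSP70, held 40 of the members. Dnaja1, the major cytosolic form, had 202, 191, 220 and 225 FPKM in control and BPA males and control and BPA females. Dnaja2, a related cytosolic form, had 81.6, 78.3, 85.2 and 94.2. None of these levels differed by more than 0.15 on the log2 scale between treatments within a sex. Dnaja3, the HSP40 of the mitochondrial matrix, had 21.4, 21.6, 19.7 and 19.8 FPKM and was level between treatments in each sex. Dnajb6, a suppressor of aggregation that is abundant in brain, had 77.1, 77.8, 75.3 and 81.8 FPKM. Dnajc5, the cysteine string protein of synaptic vesicles, had 67.1, 65.1, 65.3 and 70.2, and Dnajc6, the auxilin that uncoats clathrin vesicles, had 59.3, 58.3, 58.2 and 55.4. Dnajc7, which binds HSP70 and HSP90, had 64.1, 70.1, 69.6 and 80.6 FPKM, so that both BPA libraries lay above both control libraries, as in 13.3% of all tested rows with a gene ID, with log2 differences of 0.13 in males and 0.21 in females. Dnajb5, a cytosolic form present in brain, had 47.7, 47.8, 49.2 and 45.1 FPKM. Dnajb2, a form known for its high level in neurons, had 31.6, 28.3, 32.1 and 27.9, lower in both BPA libraries. Dnajb13 and Dnajc22 stayed under a mean of 1 FPKM, and Dnajb7 was listed at 0.09 FPKM and for females only. Of the 37 HSP40 genes tested, 9 (24.3%) were lower and 10 (27%) were higher in BPA in each sex, near the 32.6% and 24.2% of all tested rows with a gene ID.

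Dnajc27, a small GTPase with a DnaJ domain (gene ID 298859), stood out among them. It had 13.6 FPKM in control males, 10.7 in BPA males, 14.9 in control females and 9.98 in BPA females. The log2 difference was -0.32 in males and -0.53 in females, and both BPA libraries were below both controls. Over both sexes the difference was -0.42 with a standard error of 0.13, an unadjusted p of 0.0131 in limma and an adjusted p of 0.973. Over all tested rows with a gene ID, 2.74% were lower at an unadjusted p under 0.05.

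The Bag genes, whose products release client proteins from HSP70, were led by Bag6 with 110, 102, 90.5 and 97.1 FPKM in control and BPA males and control and BPA females. Bag1, a nucleotide exchange factor, had 42.7, 35.8, 39.4 and 35.1 FPKM, with both BPA libraries below both control libraries. Its unadjusted limma p was 0.0879, and 0.0345 with sex as a covariate. Bag4, an inhibitor of death receptor signalling, had 18.1, 17.7, 19.8 and 20.8 FPKM. Hspbp1, a further exchange factor of HSP70, had 64.1, 60.7, 50.5 and 51.4 FPKM and differed more between the sexes than between treatments. Bag3, which acts with Hspb8 in selective autophagy, was low at 2.02, 1.72, 1.91 and 1.09 FPKM. Its levels rested on 22 to 41 fragments. Of the 6 Bag genes, 2 (33.3%) were lower in each sex and 1 (16.7%), Bag5, was higher in each. Over all tested rows with a gene ID, 32.6% were lower and 24.2% higher in each sex.

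The small heat shock proteins, which hold unfolded proteins without ATP, were the least expressed family. Hspb1, known as HSP27, had 3.16 FPKM in control males, 0.97 in BPA males, 1.25 in control females and 0.69 in BPA females. Its male log2 difference of -1.08 was the largest of any tested member, but it rested on 23 and 7 fragments. As a plain log2 ratio, with no pseudocount, the male difference was -1.70 with a standard error of 0.62 from counting error alone. The unadjusted limma p over both sexes was 0.0698, and 0.0384 with sex as a covariate. The female control library was itself 0.89 lower than the male control library on the log2(FPKM + 1) scale. Hspb6, a small heat shock protein known from muscle, had 7.0, 5.41, 5.6 and 4.46 FPKM. Hspb8 had 3.59, 2.81, 2.93 and 4.21 FPKM, lower in BPA males and higher in BPA females. Hspb2, Hspb7 and Hspb9 were at most 0.59 FPKM, and Hspb3 was at most 0.17 and listed for males only.

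The ER folding genes had lower levels in the BPA library of each sex. Calr, or calreticulin, a calcium-binding chaperone of glycoproteins (gene ID 64202), had 254 FPKM in control males, 193 in BPA males, 255 in control females and 205 in BPA females. Hsp90b1, also called GRP94, the HSP90 of the ER lumen (gene ID 362862), had 125, 98.5, 140 and 99.95 FPKM. Pdia4, a disulfide isomerase (gene ID 116598), had 26.8, 21.5, 29.0 and 21.9 FPKM. In all 3 genes both BPA libraries lay below both control libraries.

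The log2 difference of Calr was -0.39 in males and -0.31 in females, with a counting standard error of 0.03 in each. That of Hsp90b1 was -0.35 and -0.49, with a counting standard error of 0.04, and that of Pdia4 was -0.30 and -0.39. The control libraries of the sexes differed by 0.00 in Calr, 0.16 in Hsp90b1 and 0.11 in Pdia4, less than each BPA difference. These genes were named for their limma p, and the gap between the controls is part of the residual of that fit. The comparison is therefore not separate evidence. Over both sexes the limma difference was -0.35 with a standard error of 0.09 for Calr, -0.42 with 0.10 for Hsp90b1 and -0.35 with 0.11 for Pdia4. The unadjusted p in limma was 0.00776, 0.00495 and 0.0164, and the adjusted p was 0.973 for each.

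Hspa5, known as BiP, the HSP70 of the ER lumen and the sensor partner of the unfolded protein response, had 122, 111, 136 and 111 FPKM in control and BPA males and control and BPA females. Both BPA libraries were below both controls, with an unadjusted limma p of 0.0821. With sex as a covariate, which pairs the libraries by sex, this p was 0.0266, with an adjusted p of 0.495. Pdia6, a disulfide isomerase that binds BiP, had 106, 96.7, 114 and 100.2 FPKM. Canx, the membrane-bound partner of calreticulin, had 120, 110, 141 and 131 FPKM, and its groups overlapped because female BPA lay above male control. Pdia3, the isomerase that works with both, had 163, 154, 172 and 171 FPKM and was within 0.08 of its control on the log2 scale in each sex.

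All 5 genes of the ER folding family were lower in BPA in each sex, where 32.6% of all tested rows with a gene ID were. A wider list of 12 members whose proteins reside in the ER lumen or membrane was put together after the values were seen and therefore describes the pattern only. Of these 12 genes, 9 were lower in each sex and 1, Hspa13, was higher in each, where 32.6% and 24.2% of all tested rows with a gene ID were. Their median log2 difference was -0.10 in males and -0.20 in females, where the median over all 10857 rows with a gene ID was -0.004 and -0.04. After quantile normalization the medians of the 12 genes were -0.07 and -0.21, with 9 again lower in each sex. In 5 of the 12 (Calr, Hsp90b1, Hspa5, Pdia4 and Pdia6) both BPA libraries were below both controls, where 20.2% of all tested rows were. Without the female control library this count was also 5, and without the male BPA library it was 6. Without the female BPA library it was 9, and without the male control library it was 11. Removing a library makes the criterion easier to meet for every row. The share of 20.2% is for all 4 libraries, and none is given for the counts with a library removed.

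**Figure D2:**
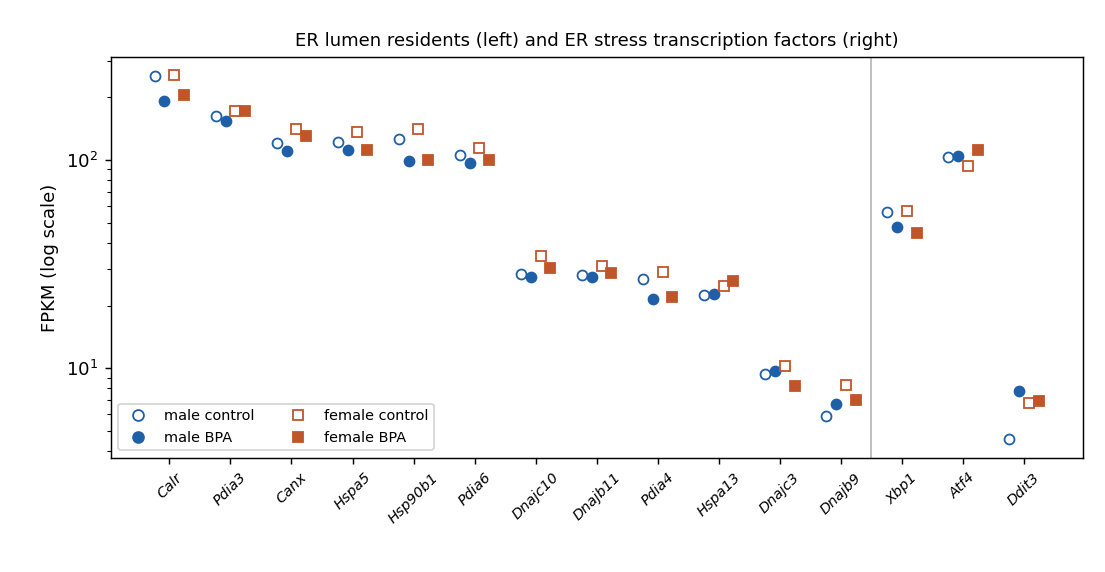
Level of 12 ER residents (left, by falling mean) and the 3 ER stress transcription factors (right) in each library, in FPKM on a log scale. Open symbols are control and filled symbols BPA libraries, circles are males and squares females. The filled symbols lie below the open ones in Calr, Hspa5, Hsp90b1, Pdia6, Pdia4 and Xbp1, and above them in Atf4 and Ddit3.

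Marker genes of other cells also differed between treatments, in several directions. All 9 tested markers of meninges and vessel wall were lower in BPA in females and 7 were lower in males, and the summed level in the BPA libraries (54 and 67.8 FPKM) was below that in the controls (77.4 and 156.7). In limma, 4 of the 9 had an unadjusted p under 0.05. The defining collagen gene Col1a1 was present in every library, with 16.7, 10.3, 28.3 and 10.8 FPKM in control and BPA males and control and BPA females. Of the 6 markers of astrocytes and radial glia, 4 were lower in each sex, with sums of 1140, 1018, 1142 and 1058 FPKM. Markers of endothelium summed to 98.6, 94.9, 112.6 and 92.2 FPKM, with 4 of 6 lower in each sex. Oligodendrocyte lineage markers summed to 136, 105, 111 and 94 FPKM, with 5 of 7 lower in males and 4 of 7 in females. Other lists went the other way in males, where 5 of 5 choroid plexus markers and 6 of 7 microglia markers were higher in BPA. In females 2 of 5 and 3 of 7 were. Hippocampal neuron markers summed to 2988, 3077, 2811 and 3192 FPKM, while Prox1, the factor of dentate granule neurons, had 12.4, 10.2, 12.8 and 7.61 and an unadjusted limma p of 0.0255. The part of these cells in the lower ER gene levels was not tested, and in bulk tissue fewer cells of a type and less RNA per cell cannot be told apart.

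Genes of ER quality control outside the symbol rule were divided in direction. A list of 28 further genes of ER folding and the unfolded protein response had 23 tested genes. Of these, 5 were lower and 7 higher in each sex, where 32.6% and 24.2% of all tested rows with a gene ID were. The median log2 differences of the list were 0.04 in males and 0.03 in females. Creld2, a secreted ER stress protein, had 13.1, 10.9, 12.7 and 9.30 FPKM in control and BPA males and control and BPA females, and it was the only gene of this list with an unadjusted limma p under 0.05, at 0.0456. Hyou1, a large HSP70-related protein of the ER, had 33.3, 29.9, 33.1 and 27.1 FPKM. Among 23 co-chaperones outside the symbol rule, 21 were tested, 4 were lower and 8 higher in each sex, against the same shares of 32.6% and 24.2%. The collagen chaperone Serpinh1 had 35.5, 32.0, 44.5 and 27.1 FPKM, and Pfdn2, a prefoldin subunit, had 53.7, 61.8, 53.6 and 74.0. Their unadjusted limma p was 0.0254 and 0.0276, and no gene of either list passed the adjusted threshold.

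Of the 3 ER stress factors, Xbp1 was lower in BPA in each sex, and Atf4 and Ddit3 were higher. Xbp1, the factor that is spliced by the ER sensor IRE1 (gene ID 289754), had 56.5 FPKM in control males, 47.7 in BPA males, 56.8 in control females and 44.7 in BPA females. The groups did not overlap, the log2 differences were -0.24 and -0.34, and the unadjusted limma p was 0.0226 with an adjusted p of 0.973. The values do not separate the spliced and unspliced forms. Atf4, a factor of amino acid and ER stress, had 104, 104, 93.3 and 112 FPKM, with differences of 0.01 in males and 0.26 in females. Ddit3, which encodes CHOP, had 4.55, 7.76, 6.77 and 6.94 FPKM, so that the male control library was low and the other three were close together. Its male log2 difference was 0.66, on 31 and 52 fragments, and its female difference was 0.03.

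Of the heat shock factors, Hsf2 was higher in BPA in each sex, while Hsf1 differed by less than its counting standard error. Hsf1, the master factor of the heat shock response, had 6.63, 6.30, 7.0 and 6.51 FPKM in control and BPA males and control and BPA females. Hsf2, a related factor with roles in brain development, had 25.3, 30.9, 27.9 and 32.7 FPKM. Both BPA libraries were below both controls in Hsf1, with differences of -0.06 in males and -0.09 in females and a counting standard error of 0.16 in each. After quantile normalization the female difference of Hsf1 was -0.002. Both BPA libraries were above both controls in Hsf2, with differences of 0.28 in males and 0.22 in females and an unadjusted limma p of 0.0586. With sex as a covariate the p of Hsf2 was 0.0188, with an adjusted p of 0.482.

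The members with the ER stress element printed above were mostly lower in BPA. Of these 6 genes, 5 were lower in each sex (Calr, Canx, Hsp90b1, Hspa5 and Xbp1), and in 4 of them, all but Canx, both BPA libraries lay below both controls. The shares over all tested rows with a gene ID were 32.6% and 20.2%. Dnajc3, an ER HSP40 that dampens the kinase PERK, was the exception, with 9.42, 9.70, 10.3 and 8.22 FPKM in control and BPA males and control and BPA females. The median log2 difference of the 6 members was -0.18 in males and -0.30 in females. The 10 tested genes outside the set with the same element had medians of 0.13 and -0.16, and 2 of them, Creld2 and Ppm1l, were lower in each sex. The element was therefore not accompanied by lower levels in every gene that held it. Of the 6 members with a heat shock element, 3 were lower in each sex and 1 was higher in each, with medians of -0.06 and -0.01. The 34 tested genes outside the set with that element had medians of -0.06 in both sexes.

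**Figure D3:**
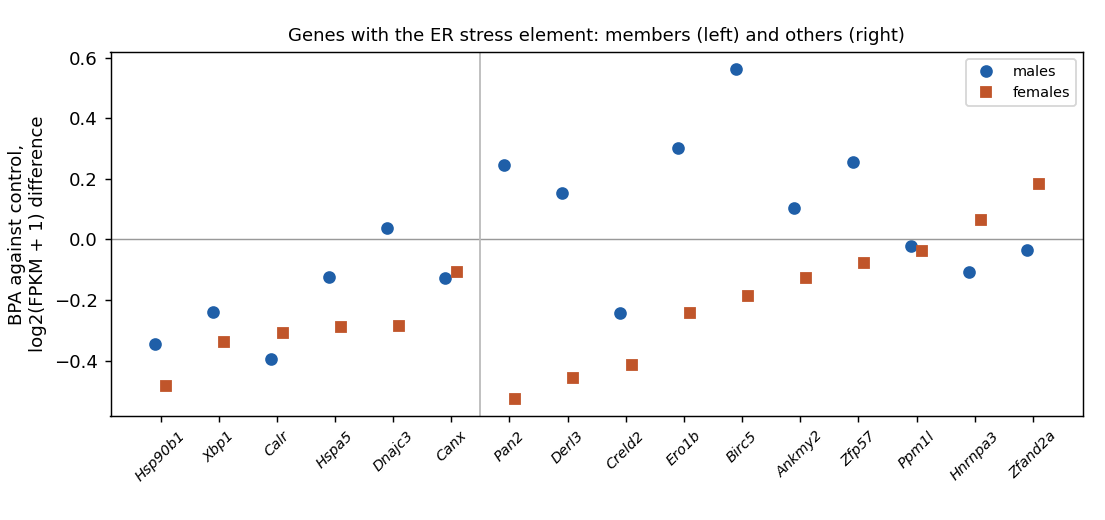
Difference between BPA and control on the log2(FPKM + 1) scale for the 16 tested genes whose promoter window holds the ER stress element, with the 6 members on the left and the 10 other genes on the right. Circles are males and squares are females, each from 1 library against 1. Both symbols lie below 0 in 5 of the 6 members and in 2 of the 10 other genes.

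Over all 83 tested members no gene passed an adjusted p of 0.05 in the limma test of BPA against control over both sexes. The background over all 13542 rows was 0.0%, and the adjusted p of the members lay between 0.973 and 0.998. At an unadjusted p under 0.05, 5 members (6.02%) were lower in BPA, namely Calr, Dnajc27, Hsp90b1, Pdia4 and Xbp1, where 2.74% of all tested rows with a gene ID were. None was higher, where 1.11% were. With sex as a covariate 9 members had an unadjusted limma p under 0.05, but the share of all rows under that fit is not given here. The rise from 5 to 9 therefore cannot be read as specific to the members. Without the female BPA library the differences were -0.40 for Calr, -0.43 for Hsp90b1, -0.38 for Dnajc27, -0.36 for Pdia4 and -0.24 for Xbp1. Under the 10 alternative settings the difference ran from -0.31 to -0.40 in Calr and from -0.34 to -0.50 in Hsp90b1.

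Both BPA libraries lay below both control libraries in 21 members (25.3%), against 20.2% of all tested rows with a gene ID, and above them in 10 members (12%), against 13.3%. In each sex, 29 members (34.9%) were lower and 18 (21.7%) were higher, where the background was 32.6% and 24.2%. For the members as a whole these shares were near the background. The median log2 difference was -0.03 in males and 0.02 in females, where it was -0.004 and -0.04 over all rows. The median absolute difference of the members was 0.06 in males and 0.13 in females, and it was 0.11 between the female and the male control library. Over all rows with a gene ID it was 0.115, 0.15 and 0.15.

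Within males, 1 member (Hspb1) had a log2 difference of -0.5 or less, where 2.06% of all rows had, and 3 members (Ddit3, Dnajc28 and Hspbap1) had one of 0.5 or more, where 1.34% had. Dnajc28, a little-studied DnaJ protein, had 1.81 FPKM in male control and 3.06 in male BPA, on 22 and 37 fragments. Hspbap1, which binds HSP27, had 3.84 and 5.96 FPKM. Neither gene passed 0.5 in females, where their differences were 0.23 and 0.19. Dnajc21, a DnaJ protein of ribosome assembly, was next below the threshold, at 4.19 and 2.86 FPKM in males with a difference of -0.43.

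Within females, 3 members (Dnajc12, Dnajc27 and Hspb11) had a log2 difference of -0.5 or less, where 4.93% of all rows had, and no member had one of 0.5 or more, where 1.17% had. These calls depended on the scaling. After quantile normalization none of the 3 passed, at -0.41, -0.48 and -0.42. Hsp90b1 (-0.53), Hspb8 (0.53) and Dnajc25 (0.52) passed instead. Dnajc12, a co-chaperone of aromatic amino acid hydroxylases, had 6.47 FPKM in female control and 4.24 in female BPA, and 3.82 and 4.42 in males. Hspb11, a subunit of the ciliary transport complex that is also known as Ift25, had 7.92 and 5.30 FPKM in females and 5.15 and 4.54 in males. In both genes the female control library was the high one. Without quantile normalization, Hsp90b1, at -0.49, and Dnajb3, a DnaJ protein known from testis with 5.44 and 3.61 FPKM and a difference of -0.48, came closest to the threshold without passing it. Between the control libraries of the sexes, 4 members (Dnajc12, Dnajc24, Hspb1 and Hspb11; 4.82%) differed by at least 0.5, where 5.82% of all rows did, so that Dnajc12 and Hspb11 differed between the controls as much as between treatments.

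**Figure D4:**
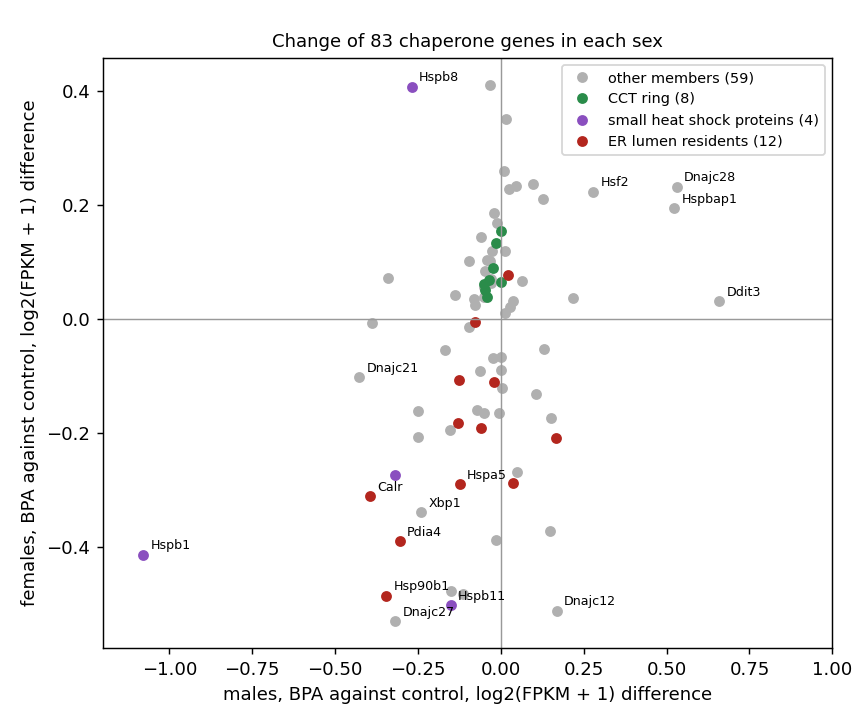
Difference between BPA and control on the log2(FPKM + 1) scale in males (x axis) and females (y axis) for the 83 tested members, each axis from 1 library against 1. Colours mark the CCT ring, the small heat shock proteins and the ER residents. The CCT subunits form a tight group just above 0 in females and at 0 in males, and 9 of the 12 ER residents lie in the lower left area.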

How the data were processed

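Hippocampal RNA of 4 pooled libraries (male and female, BPA and vehicle) was sequenced, and the authors deposited 1 FPKM value per gene model and library. The unit follows from the values, since the files name none. The submitters' processing notes list HISAT 0.1.6, Bowtie2 2.2.5, RSEM and build rn6. Strand use in counting is not given in the sources used here. The authors set no value below 0.01 FPKM.

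Groups came from the sample titles. Files were joined by row name, and genes listed for 1 sex only (4 members) were left out of comparisons. Values were transformed to log2(FPKM + 1), and this shrinks the differences of weakly expressed genes. A row entered the comparisons when its mean reached 1 FPKM, which 7 members listed in all libraries did not. The 2 BPA libraries were set against the 2 control libraries in limma 3.58.1 under R 4.3.3, with a trended eBayes prior and Benjamini-Hochberg adjustment over 13542 rows. The script was tested on simulated data. Within a sex, 1 library was set against 1, with no test and a log2 threshold of 0.5. Depth was recovered from the steps of low values in genes of 300 to 1500 bases, and errors from it cover counting only. Tables and figures were made in Python 3.11.15.

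The members and lists were chosen with earlier results of these data known. Named in full were the 3 members with the highest mean of each family, those at an unadjusted p under 0.05, the 5 largest differences in each sex, the 5 transcription factors, Hspa1a and Hspa1b. Hspa9, Hsph1, Bag3, Pdia6 and Dnajc3 were added after their values were seen. Promoters came from RefSeq (GRCr8), matched by gene ID for 76 of 94 members. Alternatives were quantile normalization, other filters and pseudocounts, sums with new gene models, sex as a covariate and leaving out each library.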

Additional observations from a re-analysis of the deposited data

Results flagged for a closer look

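Hspb8, a small heat shock protein that acts with Bag3, had a BPA against control difference of -0.27 in males and 0.41 in females on the log2(FPKM + 1) scale. It is singled out because the sexes moved in opposite directions. With 1 library for each sex and treatment the difference between the sexes was not tested. The values rested on 43 to 64 fragments, and as plain log2 ratios the differences were -0.35 and 0.52, with counting standard errors of 0.29 and 0.28.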

How the results depend on the processing

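No member passed an adjusted p of 0.05 in limma under any alternative, with the smallest value at 0.183 when sex was a covariate. Over all rows the number past that threshold was 0, and it was 1 with sums over new gene models, 2 with sex as a covariate and 0 to 3 when 1 library was left out. Members at an unadjusted p under 0.05 in limma numbered 5, and 9 with sex as a covariate, which added Bag1, Hsf2, Hspa5 and Hspb1. The share of all rows under the covariate fit is not given, so this rise has no background. Members past a log2 difference of 0.5 in males numbered 4, against 1 with a mean of at least 5 FPKM and 1 at a threshold of 1. In females they numbered 3, against 7 with a pseudocount of 0.1 and 0 at a threshold of 1. Quantile normalization also gave 3 in females, but they were other genes, with Hsp90b1 lower and Hspb8 and Dnajc25 higher. The count of ER residents with both BPA libraries below both controls was 5 and ranged from 5 to 11 when 1 library was left out, an alternative chosen after the data were seen. Removing a library makes this criterion easier to meet, and no share over all rows is given for it. Quantile normalization moved the median of all rows by less than 0.1. It turned the female direction of Hsp90aa1 and Hsp90ab1 and the male direction of some CCT subunits, and moved the male median of the ER residents from -0.10 to -0.07. The fit with sex as a covariate is the one that pairs the libraries by sex, and no other pairing was available. Levels under about 5 FPKM often rested on few fragments, as with 5 to 23 for Hspb1, but not in every gene, as with 108 to 121 for Hspa12b. With 1 pool per group there was no measure of the spread between litters.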
